A study of Mus musculus with 2 samples.

Results

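The 39 genes described here are transcription factors of the neural plate and of neural progenitors and structural genes of differentiating neurons. They were listed by symbol, and all 39 were found among the 22485 named genes of the arrays, 27 of them through 1 feature and 12 through several, which were averaged per gene. The measurements come from mouse embryonic stem (ES) cells on dual-colour Agilent arrays, 1 array for a Utx knockout and 1 array for wild-type V6.5 cells. V6.5 is a mouse ES cell line, and the labels give V6.5 as the background of the knockout cells too. Utx, made from the X-linked Kdm6a, takes methyl groups off lysine 27 of histone H3 and so erases H3K27me3, a mark of repressed genes. The labels do not give the number of knockout clones. Each array set RA-treated cells of 1 line (labelled with Cy5) against untreated cells of the same line (Cy3). Treated cells had 48 h of 100 nM retinoic acid (RA) in medium without the cytokine LIF, and untreated cells were kept on gelatin with LIF. RA and the loss of LIF came together and cannot be told apart, and "after RA" below stands for both.

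Each gene therefore has 2 values, a log2 ratio (RA-treated over untreated) in the knockout and another in V6.5. No level of RNA is known, so a gene can be followed but not called expressed or silent. That red over green is the direction of the ratios is likely from the dyes, and the RA targets Cyp26a1 (4.27 in the knockout, 3.54 in V6.5) and Rarb (2.40 and 2.38) were positive on both arrays. Kdm6a had -0.16 in the knockout and -0.39 in V6.5, a ratio within each line that does not check the knockout. With 1 array per line, the value of a single line and the difference between lines have no replicate check and no p-value. The response that the lines share was tested with limma over both arrays, and "rose" and "fell" are used of genes with a Benjamini-Hochberg adjusted p under 0.05 in that test. Across all named genes the ratios of the 2 arrays had a Pearson r of 0.84 and a Spearman rho of 0.73, a description across genes, which are not independent replicates. Fewer cells of a type and less RNA per cell cannot be told apart in these bulk samples.

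Neural fate in the early embryo is laid down by SoxB1 factors, after which Pax, Irx, Olig, Dbx and Zic factors divide the neural tube into territories. Proneural basic helix-loop-helix (bHLH) factors then take cells out of the progenitor state, and neurons switch on cytoskeletal, adhesion and RNA-binding proteins. RA is a signal from the trunk mesoderm that gives neural tissue a hindbrain and spinal cord character, and it is widely used to direct ES cells toward neural fates.

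Of the 39 genes, 8 rose and 9 fell, beside 8.93% of all named genes that rose and 7.93% that fell. The genes were chosen with earlier results of these data known, so these shares only describe the list. All 8 that rose were transcription factors: Sox3, Sox10, Neurog2, Neurog3, Olig3, Irx2, Irx3 and Zic1. Those that fell were the factors Sox11, Neurod1, Olig1 and Olig2 and the neuronal genes Tubb3, Stmn2, Ncam1, Gap43 and Elavl3. The median ratio of the 39 was -0.02 in the knockout and 0.23 in V6.5, where the median of all named genes was -0.02 on both arrays. Over the 29 transcription factors the median was 0.31 in the knockout and 0.37 in V6.5, and over the 9 neuronal differentiation genes it was -0.65 and -0.46. Against a change of at least 1.5-fold (limma's treat), only Sox3 rose, and only Neurod1 and Stmn2 fell.

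**Figure D1:**
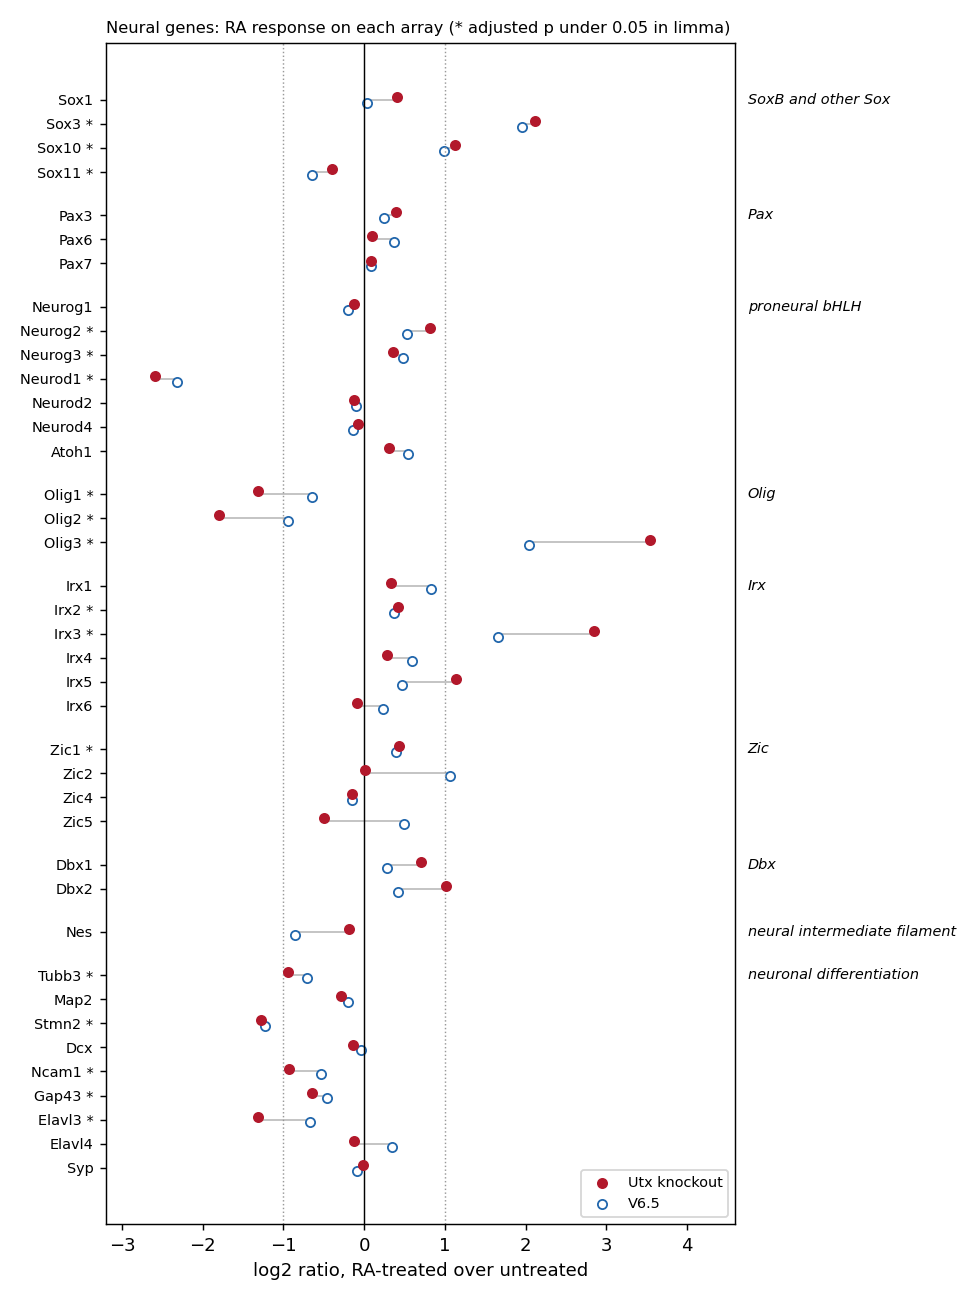
Log2 ratio (RA-treated over untreated) for each of the 39 genes (rows, grouped by role), with a filled point for the Utx knockout array and an open point for the V6.5 array. Dotted lines mark 2-fold, and an asterisk marks the 17 genes with an adjusted p under 0.05 in limma. Olig3 lies at 3.54 and 2.04 and Neurod1 at -2.59 and -2.31, while 8 of the 9 neuronal differentiation genes lie below 0 on both arrays.

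In the knockout, 6 of the 39 genes were 2-fold or more above untreated cells and 5 were 2-fold or more below them, beside 2.92% and 1.65% of all named genes. In V6.5, 4 were above by this measure and 2 below, beside 2.52% and 1.59%. Counted from 1.5-fold, the numbers were 8 higher and 8 lower in the knockout and 7 higher and 8 lower in V6.5, so the contrast between the lines in lower genes depends on the fold chosen. Only Olig3, Irx3 and Sox3 were past 2-fold upward on both arrays, and only Neurod1 and Stmn2 downward. Sox10 was just short of this, with 1.13 in the knockout and 0.99 in V6.5. Signs were opposite on the 2 arrays for 3 of the 39 genes, and for 24.4% of all named genes.

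The upstream sequence is shown for the 2 genes with the highest mean ratios, Olig3 and Irx3, and for the gene with the lowest, Neurod1, among the genes past 2-fold on both arrays. Stmn2, the next lowest, is named only. The RefSeq promoter table (GRCm38.p6) holds windows of 250 bases before to 50 after the gene start for 28 of the 39 genes. The 250 bases upstream of the start are printed 5′ to 3′ on the gene's own strand, with capitals for a retinoid half-site (AGGTCA or the related forms with letters AGTTCA, with letters GGGTCA and with letters GGTTCA, on either strand).
Olig3, GRCm38.p6 chr10.0:19356289-19356538, plus strand: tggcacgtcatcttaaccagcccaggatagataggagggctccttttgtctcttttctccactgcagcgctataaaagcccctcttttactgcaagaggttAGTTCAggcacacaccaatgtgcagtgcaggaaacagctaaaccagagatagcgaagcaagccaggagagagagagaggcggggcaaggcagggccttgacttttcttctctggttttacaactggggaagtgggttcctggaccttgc
Irx3, GRCm38.p6 chr8.0:91801655-91801904, minus strand: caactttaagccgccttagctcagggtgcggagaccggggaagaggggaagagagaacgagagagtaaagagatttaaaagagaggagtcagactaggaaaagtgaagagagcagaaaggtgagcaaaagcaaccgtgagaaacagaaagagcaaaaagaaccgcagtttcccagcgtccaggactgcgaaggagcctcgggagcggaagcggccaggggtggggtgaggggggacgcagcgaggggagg
Neurod1, GRCm38.p6 chr2.0:79456637-79456886, minus strand: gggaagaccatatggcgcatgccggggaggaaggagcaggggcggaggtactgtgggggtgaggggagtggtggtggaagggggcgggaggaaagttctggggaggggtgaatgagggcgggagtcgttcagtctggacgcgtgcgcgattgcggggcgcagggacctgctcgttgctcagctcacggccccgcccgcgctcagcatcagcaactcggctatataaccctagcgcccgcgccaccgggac
The Olig3 stretch holds a single half-site, 149 to 144 bases before the start, and those of Irx3 and Neurod1 hold none. Direct repeats of these half-sites with 1, 2 or 5 bases between them, the arrangements that RA receptors are known to bind, were in 0 of the 34 windows of these genes. They are rare in all 32851 RefSeq windows (0.222%, 0.268% and 0.0974% for the spacings in that order). A half-site alone was in 52.9% of the windows of the neural genes and in 43.7% of all windows. The E-box CAGATG, which the NEUROG and NEUROD proteins can bind, was in 17.6% and 17.2% on either strand, and the E-box CAGCTG, which reads the same on both strands and cannot share letters with it, was in 17.6% and 16.3%. Matching letters describe these short windows only.

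Sox factors differed from each other. Sox3, a SoxB1 factor that holds neural progenitors undifferentiated, had a log2 ratio of 2.12 in the knockout and 1.96 in V6.5, or 4.35-fold and 3.89-fold. Its mean was 2.04 ± 0.08 (limma's moderated SE, n = 2 arrays, adjusted p = 0.0068). The lines thus read Sox3 nearly alike, with a difference of 0.16. Sox1, another SoxB1 factor and a marker of the neural plate, did not follow it. It had 0.41 in the knockout and 0.03 in V6.5 (adjusted p = 0.279 in limma), and its 2 features read 0.78 and 0.03 in the knockout and 0.09 and -0.03 in V6.5. Sox10, a factor of neural crest and oligodendrocyte lineage cells, rose with 1.13 in the knockout and 0.99 in V6.5. Sox11, a SoxC factor of young neurons, fell with -0.40 in the knockout and -0.65 in V6.5. Both of its features were negative on both arrays, but the call was lost in a fit over single features (adjusted p = 0.086 for the weaker feature).

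None of the Pax genes passed in limma. Pax6, a factor of forebrain and ventral spinal cord progenitors, had 0.10 in the knockout and 0.37 in V6.5, and Pax7, of dorsal neural tube and muscle precursors, had 0.08 and 0.09. Pax3, a dorsal neural tube and neural crest factor, was measured by 11 features. They ranged between 0.20 and 0.65 in the knockout and between 0.02 and 0.60 in V6.5, so every feature was positive on both arrays. The gene mean was 0.40 in the knockout and 0.25 in V6.5 (adjusted p = 0.0725).

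Among the 7 proneural bHLH genes, 2 rose and 1 fell. Neurod1, which acts late in neuronal and also in endocrine differentiation, had -2.59 in the knockout and -2.31 in V6.5, or 6.02-fold and 4.97-fold lower. Its mean of -2.45 ± 0.10 (adjusted p = 0.0068 in limma) was the lowest of the list, and it was the gene with the 8th lowest ratio of all 22485 in the knockout and the 11th lowest in V6.5. Its 2 features read -3.06 and -2.12 in the knockout and -2.74 and -1.89 in V6.5. The features thus differed from each other by more than the lines did. Neurog2, which commits spinal cord and cortical progenitors to a neuronal fate and acts before Neurod1, went the other way. It rose with 0.81 in the knockout and 0.53 in V6.5. Neurog3, best known for specifying pancreatic endocrine cells, rose by less, with 0.36 and 0.48. Atoh1, of cerebellar granule cells and dorsal spinal interneurons, had 0.31 in the knockout and 0.54 in V6.5 and missed the threshold (adjusted p = 0.0553). Neurog1, Neurod2 and Neurod4 lay between -0.20 and -0.08 on both arrays and did not pass.

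The 3 Olig genes all passed, in opposite directions. Olig3, a factor of dorsal progenitors in the hindbrain and spinal cord, had 3.54 in the knockout and 2.04 in V6.5, which is 11.6-fold and 4.12-fold. It rose by a mean of 2.79 ± 0.38 (adjusted p = 0.0245 in limma), the highest mean of the 39 genes. In the knockout it ranked 38th from the top among all named genes, and in V6.5 119th. Olig2, which marks ventral progenitors of motor neurons and oligodendrocytes, fell, with -1.79 in the knockout and -0.95 in V6.5 (mean -1.37 ± 0.22, adjusted p = 0.0333). Olig1, of the oligodendrocyte lineage, also fell, with -1.32 in the knockout and -0.65 in V6.5 (adjusted p = 0.0415). Olig1 and Olig2 are neighbours with 0 protein-coding genes between them in RefSeq, and Olig3 lies on another chromosome. All 3 were further from 0 in the knockout than in V6.5.

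The Irx genes, Iroquois homeobox factors that position territories along and across the neural tube, stand in 2 groups of 3 neighbours, Irx1, Irx2 and Irx4 in one and Irx3, Irx5 and Irx6 in the other. Irx3, a boundary-setting factor of spinal cord progenitors, had 2.85 in the knockout and 1.66 in V6.5, 7.21-fold and 3.15-fold. It rose by a mean of 2.25 ± 0.31 (adjusted p = 0.0244 in limma). Its neighbour Irx5 had 1.14 in the knockout and 0.47 in V6.5 and missed the threshold (adjusted p = 0.0582), although it passed after quantile normalization of the arrays (adjusted p = 0.0491). Irx6, the last of that group, was close to 0, with -0.08 in the knockout and 0.23 in V6.5. In the other group Irx2 rose with 0.42 in the knockout and 0.36 in V6.5, a call lost in the fit over single features (adjusted p = 0.193 for the weaker feature). Irx1 had 0.33 in the knockout and 0.83 in V6.5, and Irx4 had 0.28 and 0.59. Irx3 and Irx5 thus had higher ratios in the knockout than in V6.5, and Irx1, Irx4 and Irx6 lower ones, while Irx2 was nearly equal.

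The Zic zinc finger genes act in the dorsal neural tube and neural crest and also stand in neighbouring pairs, Zic1 with Zic4 and Zic2 with Zic5. Zic2, which is needed for forebrain midline formation and is also active in pluripotent cells, had 0.01 in the knockout and 1.06 in V6.5. Zic5 had -0.50 in the knockout and 0.50 in V6.5. Both neighbours were thus about 1 log2 unit lower in the knockout, and neither passed the test of the shared response (adjusted p = 0.258 and 0.997 in limma). Zic4 had -0.15 in the knockout and -0.14 in V6.5. Zic1 rose on its gene mean, with 0.43 in the knockout and 0.39 in V6.5, but its 2 features did not read alike. They gave 1.12 and -0.26 in the knockout and 0.16 and 0.63 in V6.5, so neither the rise nor the small gap between lines describes a single feature, and the call was lost in the fit over features (adjusted p = 0.634).

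Dbx1 and Dbx2, homeobox factors of interneuron progenitors in the middle of the spinal cord, were positive on both arrays without passing. Dbx1 had 0.70 in the knockout and 0.28 in V6.5 (adjusted p = 0.0762), and Dbx2 had 1.01 and 0.41 (adjusted p = 0.0621). Nes, the intermediate filament of neural progenitors, had -0.19 in the knockout and -0.86 in V6.5 (adjusted p = 0.135).

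The neuronal differentiation genes that passed all fell. Of 9, 5 fell and 0 rose in limma, and at an unadjusted p under 0.05 only Map2 was added to those that fell. Stmn2, a microtubule regulator of growing axons, had -1.27 in the knockout and -1.23 in V6.5, 2.42-fold and 2.34-fold lower, with a mean of -1.25 ± 0.07 (adjusted p = 0.00864). Tubb3, the neuronal tubulin used as an early marker of neurons, had -0.95 in the knockout and -0.71 in V6.5 (adjusted p = 0.0185). Elavl3, an RNA-binding protein of newborn neurons, had -1.32 and -0.67 (adjusted p = 0.0381), a larger gap between the lines than for Stmn2 or Tubb3. Gap43, a growth cone protein, fell with -0.65 in the knockout and -0.46 in V6.5. Ncam1, a cell adhesion molecule not confined to neurons, fell on its gene mean with -0.93 in the knockout and -0.54 in V6.5. Its 3 features were far apart, at -0.72, -0.33 and -1.73 in the knockout and at 0.42, -0.51 and -1.54 in V6.5, and the call was lost in the fit over features (adjusted p = 0.766). The last 2 of these values on each array come from features annotated to the same transcript. Dcx, of migrating neurons, the dendritic Map2 and the synaptic vesicle protein Syp lay between -0.28 and -0.02 on both arrays. Elavl4, a relative of Elavl3, had -0.13 in the knockout and 0.34 in V6.5.

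**Figure D2:**
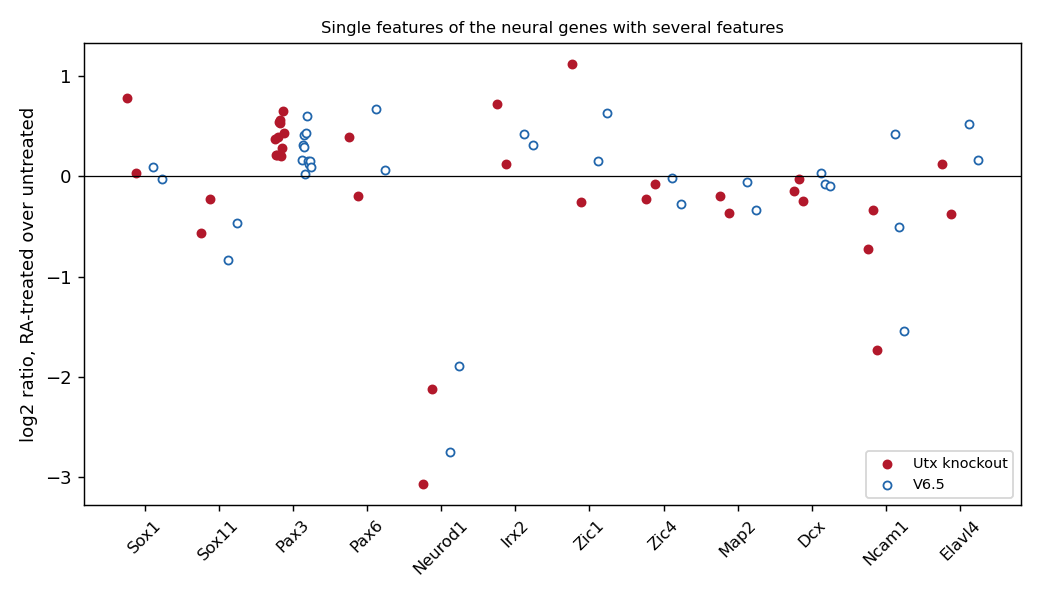
Log2 ratio (RA-treated over untreated) for each single feature of the 12 genes with several features, filled for the Utx knockout and open for V6.5. All features had 1 sign on both arrays for 6 of the 12 genes (Irx2, Map2, Neurod1, Pax3, Sox11 and Zic4), and those of Ncam1 spread between -1.54 and 0.42 in V6.5.

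Setting one array against the other compares the RA response of the knockout cells with that of V6.5. The ratio of the knockout exceeded that of V6.5 by 2-fold or more for Olig3 and Irx3 and fell short of it by 2-fold or more for Zic2, 2 and 1 of the 39 genes beside 0.583% and 0.467% of all named genes. The difference of log2 ratios, knockout minus V6.5, was 1.49 for Olig3, 1.19 for Irx3 and -1.05 for Zic2. Zic5 lay just inside 2-fold at -0.99. Olig2 followed at -0.85, Olig1 at -0.67, Nes at 0.67, Irx5 at 0.66 and Elavl3 at -0.64. The median size of the difference was 0.27 over the 39 genes and 0.13 over all named genes. Of the 39 genes, 25 were further from 0 in the knockout than in V6.5, beside 50.9% of all named genes. Of the 17 that passed the shared test it was 15, the exceptions being Sox11 and Neurog3, beside 52.4% of all 3793 genes that passed. For Irx2 and Zic1 the gap was 0.06 and 0.04, with features that disagreed on its direction. The features of Ncam1 disagreed too, with differences of -1.15, 0.17 and -0.19. These differences rest on 1 array per line and have no replicate check. Loss of Utx cannot be told apart from differences between clones, cultures or arrays.

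**Figure D3:**
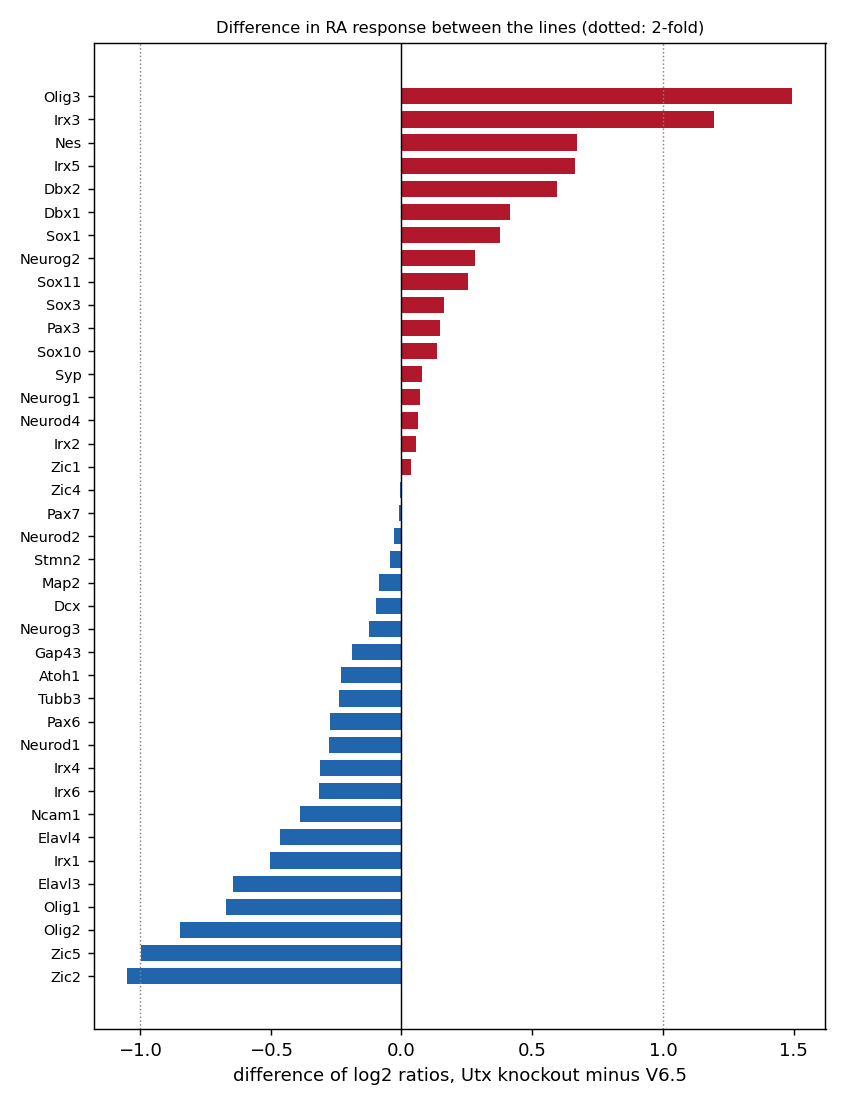
Difference of log2 ratios, Utx knockout minus V6.5, for each of the 39 genes in falling order, with dotted lines at 2-fold. Olig3 (1.49) and Irx3 (1.19) lie past the upper line and Zic2 (-1.05) past the lower, with its neighbour Zic5 at -0.99.

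**Figure D4:**
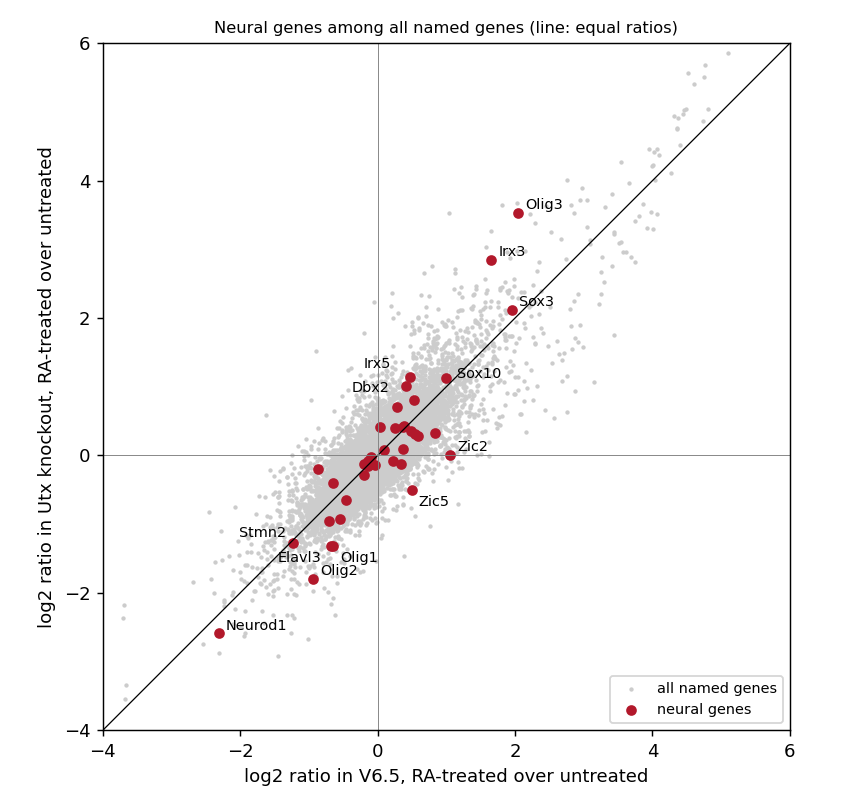
Log2 ratio in the Utx knockout (vertical) against that in V6.5 (horizontal) for the 39 neural genes (large points) and all 22485 named genes (small grey points), with a line at equal ratios. Olig3 and Irx3 lie above the line, Olig1, Olig2 and Elavl3 below it on the negative side, and Neurod1, Stmn2 and Sox3 near it.

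Other neural genes were read beside these, from lists chosen with earlier results of these data known. Of 30 measured genes of neural patterning and progenitors, 2 rose and 3 fell, near the shares of all named genes (8.93% and 7.93%). Otx2, a factor of forebrain, midbrain and the post-implantation epiblast, fell with -2.24 in the knockout and -2.08 in V6.5. Nkx6-2 fell (-0.56 and -0.51), and Lhx2 (0.56 and 0.46) and Isl1 (0.36 and 0.37) rose. The median of this list was -0.05 in the knockout and -0.06 in V6.5, close to that of all named genes. Of 30 other neuronal genes, 7 fell and 1 rose, Syt1 (1.01 in the knockout and 0.52 in V6.5). Gad1, an enzyme that makes the transmitter GABA, fell with -1.67 in the knockout and -2.11 in V6.5. Gad2, another such enzyme, had 0.40 in the knockout and 0.82 in V6.5 and missed the threshold (adjusted p = 0.0509 in limma). Mapt (-0.78 and -1.02), the tubulin Tubb2b (-1.11 and -0.77) and the RNA-binding protein Celf3 (-0.79 and -0.69) fell as well. The median over the 30 was -0.05 in the knockout and -0.04 in V6.5, with 17 and 18 of the 30 below 0. Of 7 glial genes, 1 rose, Mbp, and 1 fell, Aldh1l1.

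Markers of other cell types were read on the same arrays, where 8.93% of all named genes rose and 7.93% fell. Of 10 fibroblast markers, listed since ES cells are often grown on a fibroblast layer, 8 fell and 0 rose in limma. All 10 were negative on both arrays, between -2.63 and -0.05 in the knockout and between -1.95 and -0.19 in V6.5, with medians of -1.34 and -1.20. Vim (-1.98 and -1.52), in this list, is also made by neural progenitors. Of 12 ES cell pluripotency genes, 4 fell and 0 rose, and 9 were negative on both arrays. Their medians were -0.72 in the knockout and -0.61 in V6.5. Klf4 was lowest at -2.44 in the knockout and -1.65 in V6.5. Dppa3 (0.44 and 0.17) and Nanog (-0.16 and 0.29) did not pass. Untreated cells were kept on gelatin, and whether fibroblasts were present is not known from these data. Any link of the fibroblast or pluripotency genes to the fall of the neuronal genes was not tested. Neural crest and placode genes went both ways, with 3 of 11 higher and 2 lower. Eya2 (2.45 in the knockout and 1.81 in V6.5), Eya1 and Sox10 rose, and Mitf (-1.60 and -1.90) and Foxd3 (-2.91 and -1.45) fell. Of 12 pancreatic and gut endocrine genes 3 rose and 2 fell, and this list holds Neurod1, Neurog3 and Pax6. Of 10 somite and muscle genes, which include Pax3 and Pax7, 1 fell, Tbx6, and 0 rose. Meox1, which did not pass, had 2.36 in the knockout and 0.20 in V6.5, the 1 gene of this list past 2-fold on an array. Of 10 endoderm genes, Foxa1 rose (3.13 and 3.09), and Lama1 and Sparc fell.

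**Figure D5:**
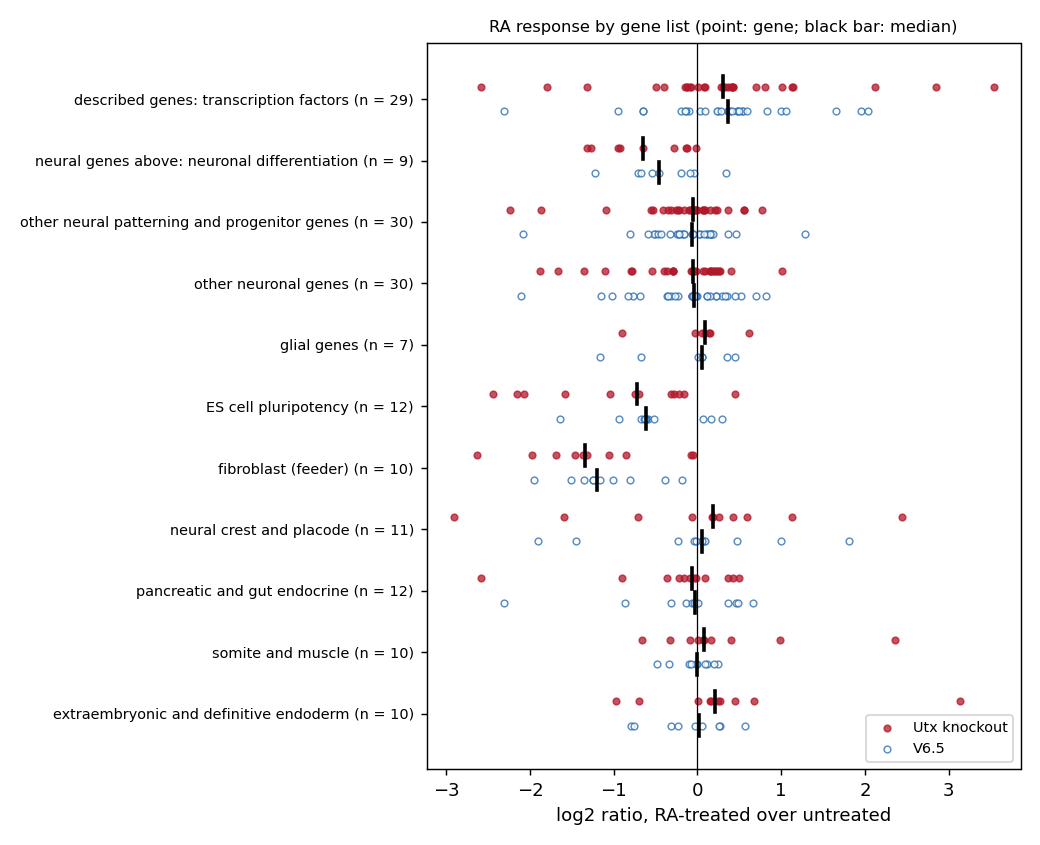
Log2 ratio (RA-treated over untreated) for each gene of the neural transcription factors, the neuronal differentiation genes and the other lists (rows), filled for the Utx knockout and open below it for V6.5, with a black bar at the list median. The medians of the neuronal differentiation genes (-0.65 and -0.46) lie below those of the transcription factors (0.31 and 0.37), and the fibroblast markers lie lowest of the lists drawn (-1.34 and -1.20).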

How the data were processed

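The deposited values, 1 per feature and array for 44397 features, were taken as log2 ratios. The labels do not state the log base. It was inferred from the largest value of 5.86, which is 58.3-fold as log2, and every fold rests on it. Each column of deposited values had a mean of 0 after rounding. Limma appears in the submitters' processing notes without a role; how background and dyes were corrected is not given in the sources used here. No spot intensities were used, so the signal over background cannot be given, and having 2 arrays limits the precision.

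The platform annotation gave 1 gene symbol for 33026 features, several for 0 and none for 11371, and features were averaged per gene. All 39 genes matched RefSeq (GRCm38.p6) by Entrez number. The shared response was fitted with limma 3.58.1 in R 4.3.3 as an intercept over both arrays (lmFit, eBayes, 1 residual and 2.98 prior degrees of freedom), two-sided, with Benjamini-Hochberg adjustment over 22485 genes. The fit treats both lines as draws from 1 response, so what differs between them enters the residual. Differences between lines, cultures and arrays are mixed there, and its p-values do not measure the spread between cultures of 1 line. There was no dye swap, so any dye bias of a gene enters both ratios alike. Python 3.11.15 and pandas 2.3.3 did the rest. The genes and lists were chosen with earlier results of these data known. Named genes are all of the 39 that passed or were past 2-fold, and the remainder by role. Up to 4 genes of lowest p are named from each other neural or glial list, and Syt1 and Gad2 besides. From the cell type lists, some genes that passed and genes shared with the 39 are named, and also Dppa3, Nanog and Meox1, which did not pass. Alternatives were median centring, feature medians, quantile normalization, robust eBayes, a fit over features, treat and counting from 1.5-fold.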

Additional observations from a re-analysis of the deposited data

Results flagged for a closer look

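The lines moved in opposite directions for 3 of the 39 genes, with 1 array each and no test of the difference. Zic5 had -0.50 in the knockout and 0.50 in V6.5, a difference of -0.99. Elavl4 had -0.13 and 0.34, a difference of -0.46, and its 2 features disagreed in sign in the knockout (0.12 and -0.37). Irx6 had -0.08 and 0.23, a difference of -0.32. Opposite signs were found for 24.4% of all named genes.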

How the results depend on the processing

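Counts of 8 higher and 9 lower in the shared response were kept within 1.5 times under 5 of the 6 alternatives (8 to 9 higher with 9 lower under 4 of them, and 6 higher with 7 lower in the fit over features). Against 1.5-fold with treat they were 1 higher and 2 lower, since that test asks for a larger change. Counting from 1.5-fold in place of 2-fold gave 8 lower in the knockout, 7 higher and 8 lower in V6.5, and 5 above and 5 below for the difference between lines. Quantile normalization between the arrays gave 2 below, Zic5 being added to Zic2. Among the mean ratios of single genes, Zic5 turned to 0.017 with median centring, from a value next to 0, and the fit over features lost the calls of Sox11, Irx2, Zic1 and Ncam1. Feature medians and robust eBayes changed no call. Both medians of the 39 genes moved by less than 0.14, the median SD between features of a gene, although that of the knockout, next to 0, changed sign with median centring. No alternative left out an array, since a single array leaves no residual degrees of freedom. No paired analysis was possible because each line has 1 array.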
